A study of Homo sapiens with 6 samples.

Results

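The early genes described here are the 4 EGR genes, the 3 NR4A genes, IER2, IER3 and SRF. They were taken by name, with earlier results of these data known, and all 10 were found among the 17013 genes with values. RNA came from Y79, an established human retinoblastoma line grown in suspension that carries extra copies of MYCN. Cells transduced with an shRNA against MYCN (3 libraries, genotype given as MYCN knockdown) were set against cells transduced with a control shRNA (3 libraries, genotype given as MYCN wild-type), with all 6 libraries in 1 batch per the labels. Both groups therefore share the line and the transduction, and differ in the hairpin. The sources used here do not give the number of hairpins, the vector promoter or the time after transduction, and all cells come from 1 line.

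Immediate early genes are switched on within minutes of a stimulus and need no new protein for it. Growth factors, depolarisation or stress reach them through the ERK cascade, which acts on ELK factors bound with SRF (serum response factor) at CArG boxes, and through the kinases that activate CREB at cyclic AMP response elements. The EGR proteins are zinc finger transcription factors, and NR4A1, NR4A2 and NR4A3 are orphan nuclear receptors whose activity depends mainly on how much of them is made. In the retina, EGR1 is known as an activity marker of amacrine cells in chick and mouse, and NR4A2 as a factor of mouse amacrine cells.

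The stretches just upstream of 3 of these genes are shown because they hold CArG boxes. EGR1 and SRF were higher with the MYCN shRNA. IER2 and the rare NR4A3 were also called higher, and their windows held no CArG box. The windows of NR4A1, which was not called, held none either. EGR2 was barely detected in either group, so its response could not be compared with those of EGR1 and SRF. A link between CArG boxes and these differences was not tested. Each stretch shown is 250 bases long and ends at the base before a RefSeq transcript start (GRCh38.p14). It is read 5' to 3' on the gene's strand. Capitals mark CArG boxes and the half-site CGTCA of the cyclic AMP response element, on either strand. The EGR1 window lies at chr5:138465229-138465478 on the plus strand, the SRF window at chr6:43171019-43171268 on the plus strand, and the EGR2 window, at the most downstream of its 3 listed starts, at chr10:62816367-62816616 on the minus strand. None of them overlaps an exon of a protein-coding transcript in the GENCODE 29 basic set.
EGR1: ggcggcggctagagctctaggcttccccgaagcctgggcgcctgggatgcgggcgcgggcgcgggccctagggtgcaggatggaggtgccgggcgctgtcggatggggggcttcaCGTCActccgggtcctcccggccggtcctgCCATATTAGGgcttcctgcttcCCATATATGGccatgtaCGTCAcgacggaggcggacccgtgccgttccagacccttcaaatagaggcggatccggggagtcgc
SRF: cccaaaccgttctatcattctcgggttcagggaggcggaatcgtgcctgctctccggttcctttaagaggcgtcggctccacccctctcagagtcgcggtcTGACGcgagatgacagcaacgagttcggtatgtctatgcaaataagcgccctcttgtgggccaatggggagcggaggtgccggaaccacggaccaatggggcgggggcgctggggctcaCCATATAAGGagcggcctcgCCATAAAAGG
EGR2: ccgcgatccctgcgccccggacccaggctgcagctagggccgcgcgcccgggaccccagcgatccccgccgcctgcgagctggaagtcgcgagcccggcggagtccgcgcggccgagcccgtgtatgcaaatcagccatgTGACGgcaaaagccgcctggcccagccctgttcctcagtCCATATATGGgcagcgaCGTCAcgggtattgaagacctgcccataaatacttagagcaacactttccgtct

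EGR1 held 2 CArG boxes, which begin 105 and 83 bases upstream of the start, flanked by half-sites that begin 135 and 66 bases upstream. SRF held 2 CArG boxes, 30 and 10 bases upstream, and EGR2 held 1, 71 bases upstream. Among all 35116 windows of this length in the RefSeq table, 1.16% held a CArG box and 11 held 2 or more. Of the 10 early genes, 7 had a window in the table and 3 of those had a CArG box. Counted by window, 3 of their 11 windows held a CArG box. The half-site CGTCA was present in 6 of the 11 windows, 1 each of EGR1, EGR2, EGR4, NR4A3, IER2 and SRF, against 21.2% of all windows, and NR4A3 had 4 copies. The full element TGACGTCA and the TATA box TATAAA were in none of their windows, against 1.65% and 10.7% of all windows. The E-box CACGTG was found in 1 window, another start of EGR2, against 6.34% of all windows. The EGR site GCGNGGGCG was found in the windows of EGR1 and SRF, against 8.42%. The TATAAA letters can overlap a CArG box, and the full element contains the half-site on both strands. These are matches of letters, and binding was not measured.

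Most of the genes are compact by their main transcript, as is known of early genes. In GENCODE 29, 1 protein-coding transcript was taken for each gene. In 8 of the 10 this transcript spans less than 10 kb, against 22.2% of the tested genes, and the exceptions are NR4A3 and SRF (10.2 kb). With all annotated transcripts EGR2, NR4A1 and NR4A2 cover longer stretches, EGR2 from 62811996 to 62919900. At most 2 exons were present in 6 of the 10, which are the 4 EGR genes, IER2 and IER3, against 6.91% of the tested genes. The pentamer ATTTA, a core of AU-rich elements that shorten the life of many early transcripts, occurred 10 times in the 3' untranslated region of NR4A3, 6 times in that of IER3 and 4 times in that of NR4A2. It occurred once in EGR1 and not at all in IER2 or EGR4. At least 3 copies were present in 6 of the 10 genes and in 41.7% of the tested genes.

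The deposited counts summed to 15490263 to 15762707 in the MYCN shRNA libraries and to 15515994 to 16078416 in the control shRNA libraries. MYCN itself, the targeted gene, had 2412, 2282 and 2194 CPM (counts per unit of library size, with TMM scaling between libraries) in MYCN shRNA replicates 1, 2 and 3, against 3045, 3127 and 2875 CPM in the control shRNA replicates. It was lower in all 3 MYCN shRNA libraries, and its log2 fold change was -0.39 ± 0.043 (SE, n = 3 each; edgeR quasi-likelihood test, adjusted p = 8.0e-11). The comparison was broad: 75.8% of 12819 tested genes were called at an adjusted p under 0.05, 38% higher and 37.9% lower with the MYCN shRNA. Replicates lay close together, with a biological coefficient of variation (spread beyond counting error) of 3.34%, so small differences could be called. The p-values measure differences against the spread among replicates of 1 line. Of all calls 50% were higher, and 66.3% were when library sizes alone were used for scaling. That scaling put the median over all tested genes at a log2 fold change of 0.19, where TMM put it at 0.00. Photoreceptor and retinoblastoma markers were present in both groups (CRX at 278 ± 6.2 CPM in MYCN shRNA cells and 217 ± 11 CPM in control shRNA cells, SD, n = 3 each), and all 13 passed the filter on low counts. Their levels differed between the groups: 9 were called higher and 4 lower (OTX2, NEUROD1, MYCN and DDX1), beside 38% and 37.9% of all tested genes. Summed over this list, levels were 9000 to 9240 CPM in MYCN shRNA libraries and 11260.5 to 11389 CPM in control shRNA libraries. MYCN and DDX1 are part of that sum.

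Markers of other cells were low or came from few genes. The glial genes GFAP, RLBP1, AQP4 and S100B averaged at most 0.0437 CPM in either group. Summed over the glial list, which also holds the widely expressed VIM and GLUL, levels were 1171 to 1203 CPM in MYCN shRNA libraries and 1149 to 1195 CPM in control shRNA libraries. The stromal list summed to 5.12 to 6.42 CPM in MYCN shRNA libraries against 2.22 to 2.67 CPM in control shRNA libraries. For the immune list the sums were 1.01 to 1.65 CPM with the MYCN shRNA and 1.38 to 1.87 CPM with the control shRNA. Pigment epithelium genes summed to 11.2 to 13.2 CPM in MYCN shRNA libraries and 3.67 to 3.80 CPM in control shRNA libraries. The endothelial list summed to 31.3 to 35.0 CPM in MYCN shRNA libraries against 3.93 to 4.66 CPM in control shRNA libraries, nearly all of it VWF, with KDR at 0 in every library. The part of these genes in the results below was not tested.

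Of the 10 early genes, 7 passed the filter on low counts and 4 of these were called higher with the MYCN shRNA (EGR1, IER2, NR4A3 and SRF), beside 38% of all tested genes. None was called lower by edgeR, beside 37.9% of all tested genes. With edgeR 0 were lower at an unadjusted p under 0.05 too, and DESeq2 and limma-voom also called 0 lower. In the same 4 genes every MYCN shRNA library was above every control shRNA library, beside 38.6% of tested genes, and 76.8% of tested genes did not overlap in one direction or the other. The filter favours genes that are high in either group, so these shares describe the 7 tested genes and not all 10. NR4A3 passed it through its MYCN shRNA libraries alone, so its call and its separation, though included in both counts, carry no weight. Leaving NR4A3 aside, the genes called higher and separated were EGR1, IER2 and SRF. A filter of 1 CPM in 3 libraries left 5 early genes, of which 3 were called higher by edgeR, and DESeq2 called 3 of the 7. NR4A1, NR4A2 and IER3 were tested and not called. EGR2, EGR3 and EGR4 did not pass the filter. Together the 10 genes made up 455 to 466 CPM in MYCN shRNA libraries and 127 to 136 CPM in control shRNA libraries. Without EGR1 the sums were 186 to 200.2 CPM in MYCN shRNA libraries and 118 to 126 CPM in control shRNA libraries.

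**Figure D1:**
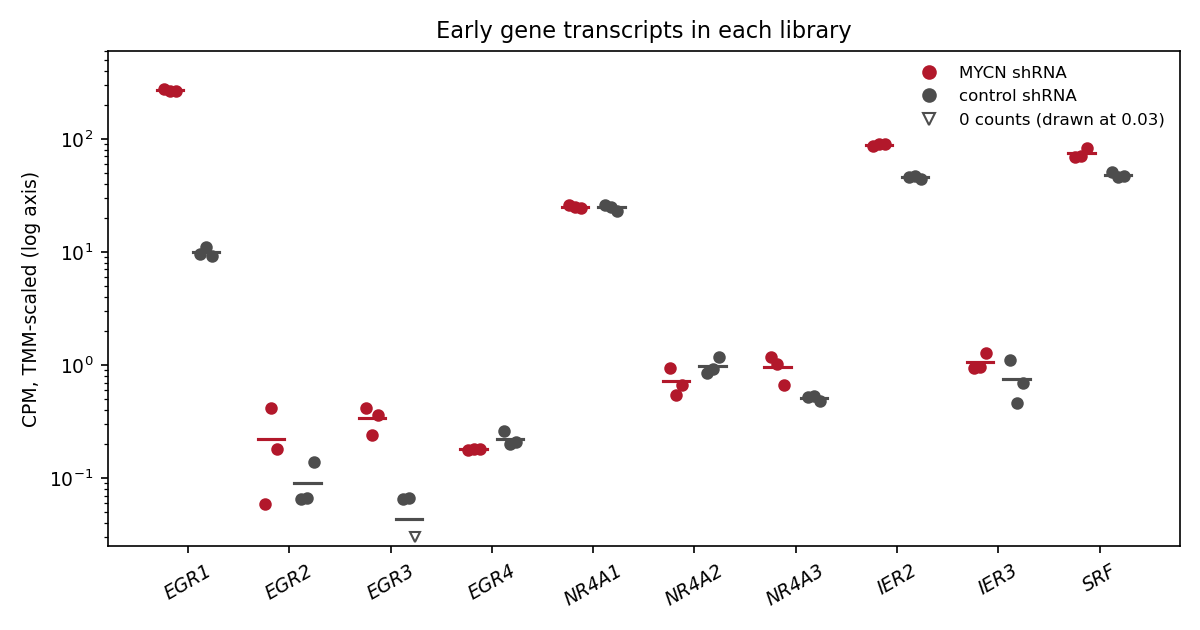
Level of each early gene in each library, in CPM on a log axis, with MYCN shRNA libraries in red at the left of each pair and control shRNA libraries in grey at the right. Bars are group means, and the triangle is a library with 0 counts. EGR1, IER2 and SRF stand apart between the groups, whereas NR4A1 overlaps, at 23.2 to 26.1 CPM.

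EGR1 (chromosome 5, 138465490 to 138469315, GRCh38), a widely used marker of stimulated cells, showed the largest difference of the 7 tested genes. It had 4676, 4431 and 4354 counts in MYCN shRNA replicates 1, 2 and 3, against 147, 167 and 133 counts in control shRNA replicates 1, 2 and 3. In CPM these were 278, 267 and 265 in MYCN shRNA cells and 9.65, 11.1 and 9.22 in control shRNA cells. Every MYCN shRNA library was far above every control shRNA library, and the replicates of each group lay close together. The fold was 27.0 (95% interval 24.8 to 29.3), or 4.75 ± 0.059 on the log2 scale (SE, n = 3 each; edgeR quasi-likelihood test, adjusted p = 8.0e-43). Among the 12819 tested genes this log2 fold change ranked 11 from the top. In bulk RNA, a larger share of cells with EGR1 transcripts and more transcripts per cell cannot be told apart.

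**Figure D2:**
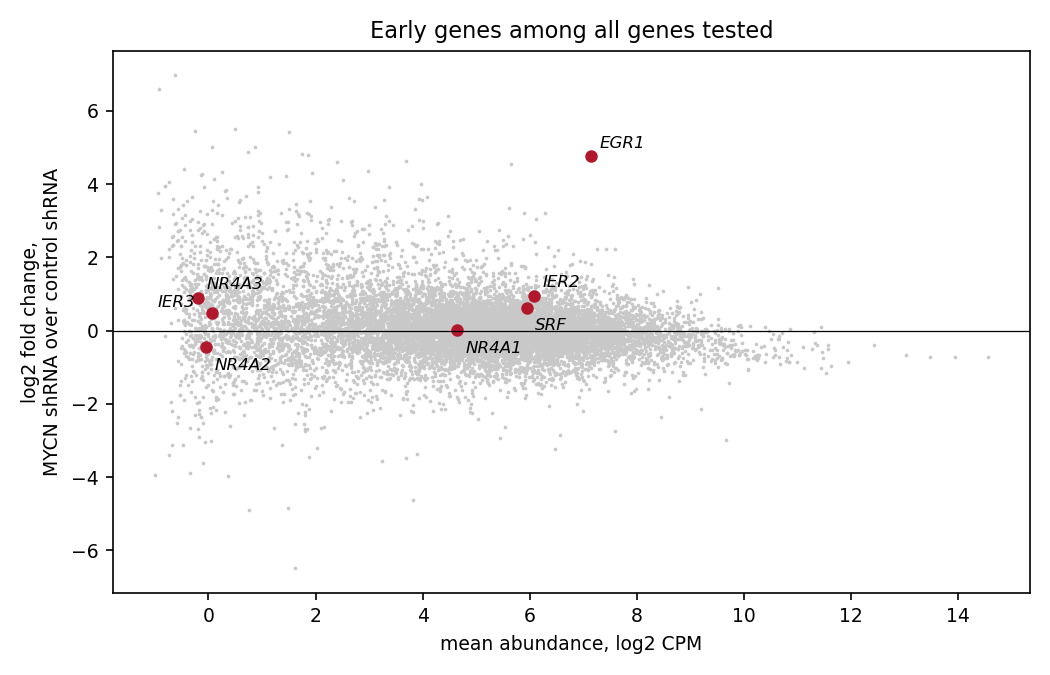
Log2 fold change of MYCN shRNA over control shRNA against mean abundance in log2 CPM, for all 12819 tested genes (grey) and the 7 tested early genes (red). EGR1 lies at 4.75, near the top, while IER2, SRF and NR4A1 lie within the cloud.

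The other EGR genes were near the detection limit in both groups. EGR3 (chromosome 8, 22687659 to 22693302), which mice need to form muscle spindles, had 7, 4 and 6 counts in MYCN shRNA libraries and 1, 1 and 0 counts in control shRNA libraries. The groups did not overlap, beside 76.8% of tested genes with no overlap in either direction. The ratio of summed EGR3 counts was 7.62 with an exact 95% counting interval of 1.81 to 68.0. With no filter on low counts its adjusted p was 0.00543 (edgeR quasi-likelihood test). EGR2 (chromosome 10), which is needed for myelin formation, had 1, 7 and 3 counts in MYCN shRNA libraries and 1, 1 and 2 in control shRNA libraries. Its groups overlapped, its ratio of 2.47 had an interval of 0.731 to 10.6, and without 1 library at a time the ratio ran from 1.35 (MYCN shRNA replicate 2 left out) to 3.39 (MYCN shRNA replicate 1 left out). EGR4 (chromosome 2, 73290929 to 73293705) had 3 counts in each MYCN shRNA library and 4, 3 and 3 counts in control shRNA libraries, a ratio of 0.807 (interval 0.290 to 2.21). In CPM its groups did not overlap either, at 0.178 to 0.183 in MYCN shRNA libraries and 0.200 to 0.262 in control shRNA libraries. Both groups nevertheless had libraries with 3 counts, so separation says little at such counts. Counting intervals cover counting error only. A difference in EGR2 or EGR4 was not detectable at this depth.

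NR4A1 (chromosome 12, 52022832 to 52059507), also called NUR77, was the one abundant early gene with little difference. It had 437, 414 and 398 counts in MYCN shRNA replicates 1, 2 and 3, against 398, 373 and 335 counts in the control shRNA replicates. After TMM scaling the groups overlapped, at 25.1 ± 0.87 CPM in MYCN shRNA cells and 24.7 ± 1.5 CPM in control shRNA cells (SD, n = 3 each). The fold was 1.01 with a 95% interval of 0.919 to 1.12 (edgeR quasi-likelihood test, adjusted p = 0.815), and the sign of the log2 fold change turned when MYCN shRNA replicate 1 or control shRNA replicate 3 was left out (-0.01 and -0.03). With library sizes alone edgeR called it, at a log2 fold change of 0.20 (adjusted p = 0.0109), close to the median shift of 0.19 that this scaling gives all genes.

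Both other NR4A genes were rare. NR4A3 (chromosome 9, 99821855 to 99866891), also called NOR1, had 20, 17 and 11 counts in MYCN shRNA libraries and 8, 8 and 7 counts in control shRNA libraries. The groups did not overlap, beside 76.8% of tested genes with no overlap in either direction. The log2 fold change of NR4A3 was 0.89 ± 0.358 (SE, n = 3 each; edgeR quasi-likelihood test, adjusted p = 0.0230). It passed the filter through its MYCN shRNA libraries alone. The call was lost with DESeq2 (adjusted p = 0.108), and also without MYCN shRNA replicate 1 (0.115), MYCN shRNA replicate 2 (0.0583), control shRNA replicate 1 (0.0513) or control shRNA replicate 3 (0.0628), all with edgeR. NR4A2 (chromosome 2, 156324432 to 156342348), also called NURR1 and needed for midbrain dopamine neurons, had 16, 9 and 11 counts in MYCN shRNA libraries and 13, 14 and 17 counts in control shRNA libraries. Its groups overlapped, and its log2 fold change of -0.44 had a 95% interval of -1.10 to 0.22 (edgeR quasi-likelihood test, adjusted p = 0.218). The interval spans both directions, and without 1 library at a time the value ran from -0.69 to -0.27.

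IER2 (chromosome 19, 13150415 to 13154908), a small nuclear protein induced by growth factors, was higher with the MYCN shRNA in every library. It had 86.9, 89.8 and 89.1 CPM in MYCN shRNA replicates 1, 2 and 3, against 46.4, 46.7 and 44.5 CPM in the control shRNA replicates. The replicates differed by far less than the groups, and the log2 fold change was 0.95 ± 0.050 (SE, n = 3 each; edgeR quasi-likelihood test, adjusted p = 9.1e-21). The fold was 1.93, with a 95% interval of 1.80 to 2.07. IER3 (chromosome 6, 30743199 to 30744554), also called IEX-1, a regulator of cell survival, was rare. Its 16, 16 and 21 counts in MYCN shRNA libraries overlapped the 17, 7 and 10 counts in control shRNA libraries. The log2 fold change of IER3 was 0.48 ± 0.328 (edgeR quasi-likelihood test, adjusted p = 0.181), and it depended on single libraries. Without control shRNA replicate 1, the highest control library, it was 0.87 and called by edgeR (adjusted p = 0.0457). Without control shRNA replicate 2, the lowest, it was 0.22 and not called (edgeR, adjusted p = 0.586).

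SRF (chromosome 6, 43171299 to 43181507) had 69.6, 70.1 and 83.5 CPM in MYCN shRNA replicates 1, 2 and 3, against 50.7, 46.4 and 47.3 CPM in the control shRNA replicates. All 3 MYCN shRNA libraries were above the controls, with replicate 3 the highest. The log2 fold change was 0.63 ± 0.061 (SE, n = 3 each; edgeR quasi-likelihood test, adjusted p = 8.4e-11), a fold of 1.55 with a 95% interval of 1.42 to 1.69.

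**Figure D3:**
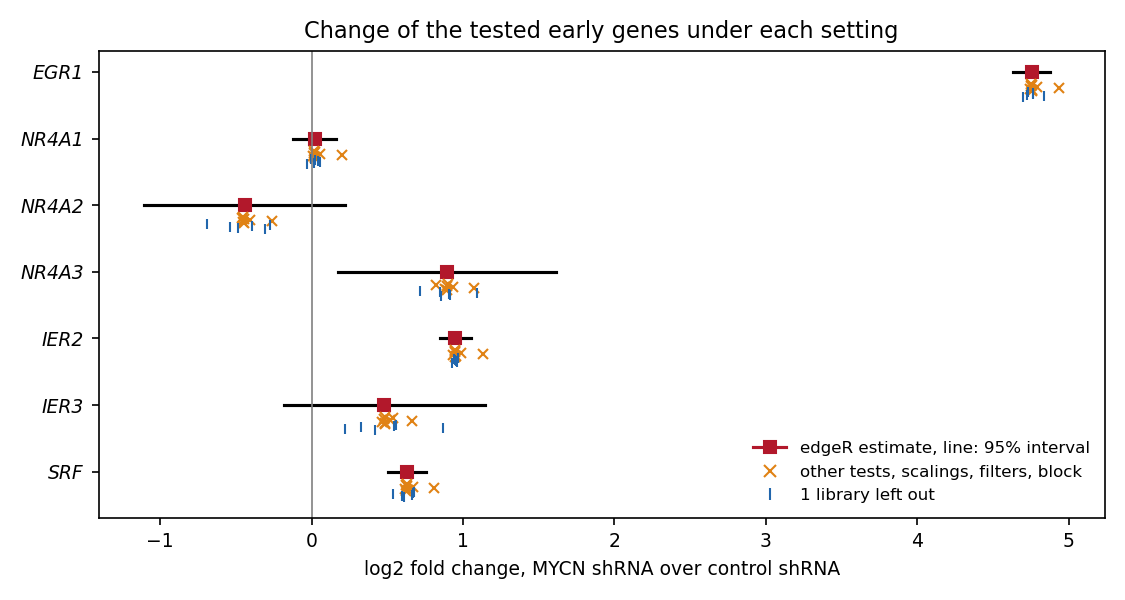
Log2 fold change, MYCN shRNA over control shRNA, of the 7 early genes that passed the filter on low counts, with its 95% interval (square and line). Crosses are other tests, scalings, filters and the replicate block, and ticks leave out 1 library each. EGR1 ran from 4.70 to 4.94 over these settings, while the intervals of NR4A1, NR4A2 and IER3 cross 0.

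Ratios of counts within a library do not depend on the scaling between libraries. There were 10.7, 10.7 and 10.9 EGR1 counts for each NR4A1 count in MYCN shRNA replicates 1, 2 and 3, against 0.369, 0.448 and 0.397 in the control shRNA replicates. The order of both genes was thus opposite in the groups. For each SRF count there were 3.66 ± 0.43 EGR1 counts in MYCN shRNA libraries and 0.208 ± 0.027 in control shRNA libraries (SD, n = 3 each). For each NR4A1 count there were 3.54 ± 0.17 IER2 counts and 2.98 ± 0.41 SRF counts in MYCN shRNA libraries, against 1.86 ± 0.073 IER2 counts and 1.95 ± 0.085 SRF counts in control shRNA libraries. For each SRF count there were 1.07 to 1.28 IER2 counts in MYCN shRNA libraries and 0.916 to 1.01 in control shRNA libraries. In each of the 6 pairs of genes compared the groups did not overlap, and the two-sided exact permutation test gave p = 0.1 (0.1 after Benjamini-Hochberg adjustment), the smallest that 3 against 3 libraries allow. These pairs draw on EGR1, NR4A1, SRF and IER2 only, so they are not independent of each other and restate the fold changes above. The share among other pairs of genes was not computed, and 76.8% of single tested genes did not overlap.

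**Figure D4:**
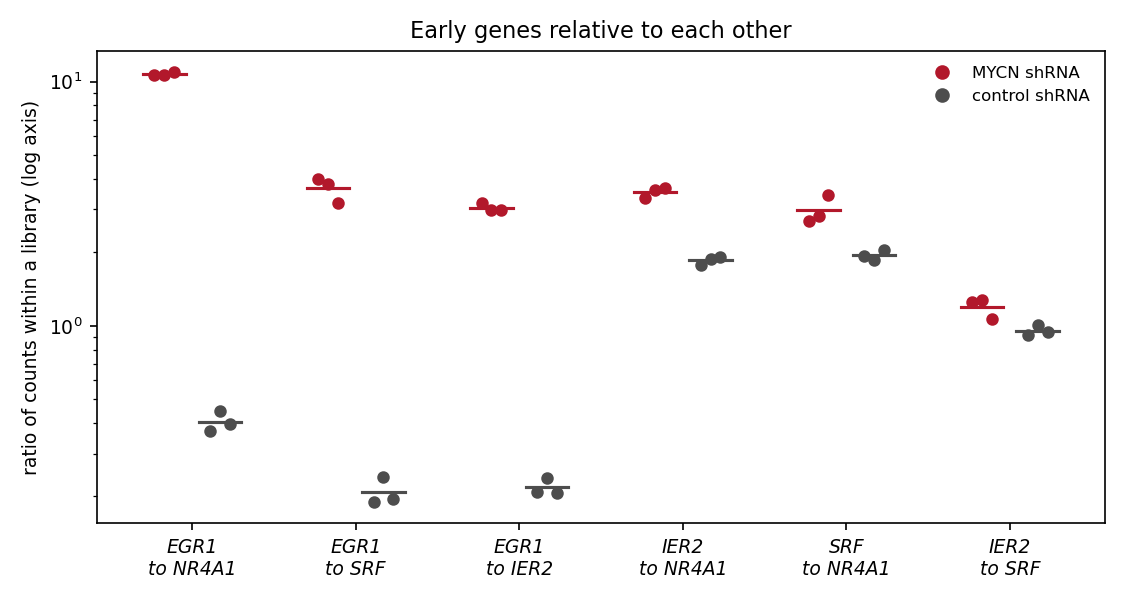
Ratio of counts between pairs of early genes within each library, on a log axis, with MYCN shRNA libraries in red and control shRNA libraries in grey. Bars are group means. The groups do not overlap in any of the 6 pairs, which share genes with each other, and ratios with EGR1 differ most.

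Per kilobase of transcript, the same 4 genes (EGR1, IER2, SRF and NR4A1) had the highest levels in both groups, in another order. In MYCN shRNA cells EGR1 came first with 86.1 ± 2.2 CPM per kb, then IER2 (30.2 ± 0.52), SRF (17.7 ± 1.9), NR4A1 (9.36 ± 0.32) and IER3 (0.857 ± 0.15), all SD with n = 3. In control shRNA cells IER2 came first with 15.6 ± 0.41 CPM per kb, then SRF (11.4 ± 0.54), NR4A1 (9.24 ± 0.54), EGR1 (3.19 ± 0.32) and IER3 (0.610 ± 0.26). Among these 5 genes the libraries of neighbours in each order did not overlap. NR4A2 and NR4A3 followed in MYCN shRNA cells with 0.208 ± 0.060 and 0.169 ± 0.046 CPM per kb and overlapped, as did EGR3, EGR4 and EGR2 below them. In control shRNA cells NR4A2 (0.285 ± 0.049 CPM per kb) was above EGR4 (0.0942 ± 0.014) and NR4A3 (0.0902 ± 0.0045), which overlapped, and EGR2 and EGR3 came last. Among 16464 genes with a transcript length, EGR1 ranked 593 to 625 in MYCN shRNA libraries and 9077 to 9448 in control shRNA libraries. IER2 ranked 2198 to 2300 in MYCN shRNA libraries and 4440 to 4629 in control shRNA libraries.

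The nearest tested genes beside EGR1 (REEP2, KDM3B, ETF1 and HSPA9) were called lower. On its left REEP2, 18.5 kb away, had 33.5 ± 1.7 CPM in MYCN shRNA cells and 40.0 ± 2.5 CPM in control shRNA cells, and fell by 0.25 on the log2 scale (SD, n = 3 each; edgeR quasi-likelihood test, adjusted p = 3.1e-04). On its right ETF1, 36.8 kb away, had 234 ± 1.0 CPM in MYCN shRNA cells and 300 ± 5.8 CPM in control shRNA cells, and fell by 0.36 (edgeR, adjusted p = 2.9e-11). SRF lies 0.668 kb before CUL9, a ubiquitin ligase gene on the same strand, which had a log2 fold change of 0.77 ± 0.061 (SE; edgeR, adjusted p = 5.1e-13). IER2 starts 0.032 kb from STX10, which runs the other way and had a log2 fold change of 0.26 ± 0.085 (SE; edgeR, adjusted p = 0.0061). The strand setting of the counting is not given in the sources used here. NR4A1, IER2, IER3 and EGR3 each overlap a noncoding gene on the opposite strand in GENCODE 29, so reads from those loci cannot be assigned with certainty.

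Over the 6 libraries, with each gene's log2 CPM centred on its own mean, the smallest Euclidean distances to EGR1 among 11019 genes were those of FOS (0.613), HAP1 (0.837) and NAV2 (1.25). FOS, the partner of JUN in AP-1, had 82.8, 98.6 and 98.8 CPM in MYCN shRNA libraries and 3.81, 5.40 and 2.63 CPM in control shRNA libraries. Nearest to SRF were CLEC2D (0.0999), TRIM58 (0.121) and TEX9 (0.124), and nearest to NR4A1 were SCRIB (0.0387), CDIPT (0.0512) and PRR12 (0.0521). The 6 libraries form 2 groups of 3, and the profile includes the difference between them.

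Other early genes were also more often higher than lower, as described here by lists that were chosen with results of these data known. In the AP-1 list 5 of 8 tested genes rose and 2 fell. Their median on the log2 scale was 1.06, beside 0.00 over all tested genes. Over all tested genes 38% were called higher and 37.9% lower, and the counts of each list stand beside these shares. JUN rose to 133 ± 9.0 CPM in MYCN shRNA cells, against 27.4 ± 2.3 CPM in control shRNA cells, and JUNB to 130 ± 5.2 CPM, against 60.2 ± 2.8 CPM (SD, n = 3 each). ATF3, a stress-induced factor, fell by 0.54 and MAFF by 0.91 on the log2 scale. Of 31 further early genes tested, 21 rose and 7 fell (median 0.52), and 22 rose and 6 fell with library sizes alone. The kinase gene SGK1 rose to 139 ± 7.6 CPM in MYCN shRNA cells, against 15.1 ± 0.18 CPM in control shRNA cells, and the antiproliferative gene BTG2 had a log2 fold change of 0.97. The clock gene PER1, itself a CREB target, had a log2 fold change of -1.24, and CEBPB one of -1.07.

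**Figure D5:**
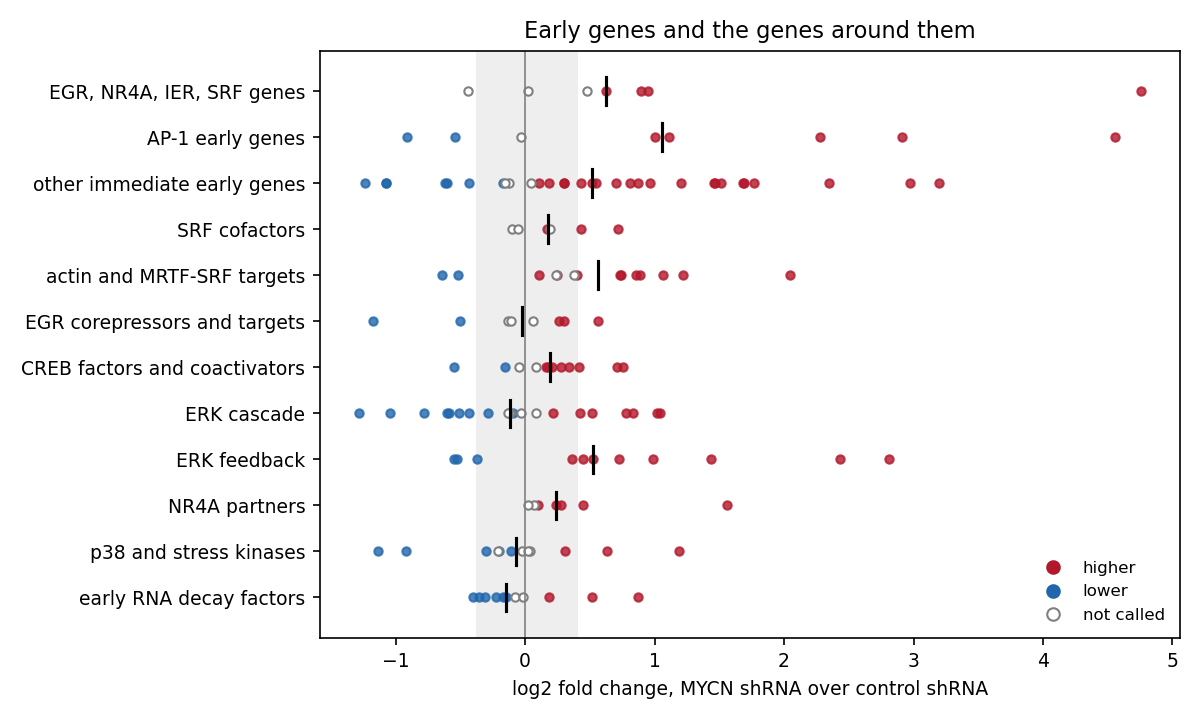
Log2 fold change, MYCN shRNA over control shRNA, of the tested genes in each list, with genes called higher in red, called lower in blue and not called in white. Black bars are list medians, and the grey band runs from the lower to the upper quartile of all tested genes, -0.37 to 0.40. Of the lists drawn, AP-1 has the highest median, 1.06.

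The counts for the partners of SRF rested on few genes. Among 6 tested cofactors 3 rose and none fell at an adjusted p under 0.05 (edgeR quasi-likelihood test, TMM scaling), the median being 0.18 on the log2 scale, beside 38% higher and 37.9% lower among all tested genes. Without control shRNA replicate 2 or 3 the cofactors had 2 higher and 1 lower, and with library sizes alone 5 of the 6 rose. DESeq2 and limma-voom also called none lower, and none was lower at an unadjusted p under 0.05. MRTFB, an actin-sensitive coactivator, rose to 45.1 ± 1.2 CPM in MYCN shRNA cells, against 27.3 ± 0.59 CPM in control shRNA cells. ELK3 had a log2 fold change of 0.43 and MRTFA one of 0.17 (edgeR, adjusted p = 0.0243), which DESeq2 did not call (adjusted p = 0.0827). With edgeR MRTFA was also not called without MYCN shRNA replicate 1 (adjusted p = 0.0840) or 2 (0.0804), or without control shRNA replicate 2 (0.177) or 3 (0.0627). ELK1 (-0.10) and ELK4 (-0.06), ternary complex factors that carry the ERK signal to SRF, did not pass the test, although ELK4 was called at 0.12 with library sizes alone. Without control shRNA replicate 3 ELK1 was called by edgeR (adjusted p = 0.0491), and ELK4 was called without control shRNA replicate 2 (adjusted p = 0.0495). Of 14 tested actin-related targets 10 rose and 2 fell (median 0.57), with the filamin gene FLNA at 1.07 and TPM1 at 0.88 against FHL1 at -0.64 and ACTB at -0.52.

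EGR1 feeds back on itself through the NAB corepressors, and of these NAB1 rose while NAB2 did not pass the test. NAB1 had 148 ± 6.5 CPM in MYCN shRNA cells and 99.8 ± 4.2 CPM in control shRNA cells, whereas NAB2 had 23.5 ± 1.7 CPM in MYCN shRNA cells and 25.4 ± 0.93 CPM in control shRNA cells (SD, n = 3 each; edgeR, adjusted p = 0.169 for NAB2). In the list of corepressors and reported EGR1 targets 3 of 8 tested genes rose and 2 fell (median -0.02, or 0.16 with library sizes alone), beside 38% higher and 37.9% lower among all tested genes. DUSP4 fell by 0.50 on the log2 scale, and TXNIP fell by 1.17. Of 7 partners of the NR4A receptors 5 rose, and 7 did with library sizes alone. Among them was RXRG, which is also in the photoreceptor marker list, a retinoid X receptor of cones, at 64.6 ± 3.2 CPM in MYCN shRNA cells and 22.0 ± 2.1 CPM in control shRNA cells. RXRB (0.28) and RXRA (0.24) also rose, with smaller log2 fold changes than the 1.56 of RXRG.

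The upstream kinases held genes called in either direction. In the ERK cascade 7 of 21 genes rose and 10 fell (median -0.11), beside 38% higher and 37.9% lower among all tested genes, with RPS6KA5 (1.04) and SOS2 (0.78) against RPS6KA3 (-1.05) and RPS6KA2 (-1.28), and with library sizes alone 10 rose and 8 fell (median 0.07). Of 12 tested p38 and other stress kinase genes 3 rose and 5 fell, led by MAPK14 (1.19) and MAPK11 (0.63) against MAP2K6 (-0.92) and MAPK13 (-1.14). Their median was -0.07, and with library sizes alone 6 rose, 2 fell and the median was 0.11. Of 11 feedback genes of ERK signalling 8 rose and 3 fell, with a median of 0.52. SPRY4 had 7.10 ± 0.57 CPM in MYCN shRNA cells and 1.00 ± 0.22 CPM in control shRNA cells and SPRED2 had a log2 fold change of 0.73, while DUSP7 (-0.55) and SPRY2 (-0.53) fell. Among 12 tested CREB factors, coactivators and protein kinase A subunits 8 rose and 2 fell (median 0.19), with PRKACA at 0.71 and CRTC3 at 0.76. CREB1 itself fell by 0.55 and CRTC1 by 0.16, and CRTC1 was not called with DESeq2 (adjusted p = 0.0534), upper quartile scaling (edgeR, 0.0670) or library sizes alone, where its log2 fold change was 0.02. Nor did edgeR call CRTC1 without MYCN shRNA replicate 2 (adjusted p = 0.0548) or control shRNA replicate 1 (0.128). CREM, whose ICER products repress cyclic AMP response elements, rose by 0.20 (edgeR, adjusted p = 0.0106), and was not called without MYCN shRNA replicate 2 (0.0512) or control shRNA replicate 3 (0.0686). Of 11 factors that act on AU-rich transcripts 3 rose and 6 fell (median -0.15), with ZFP36L2 (0.52) and ZFP36 (0.87) against ELAVL1 (-0.36) and HNRNPD (-0.31), and 5 rose and 3 fell with library sizes alone (median 0.04). ZFP36 and ZFP36L2 are also in the list of further early genes.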

How the data were processed

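Poly(A) RNA-seq (paired-end) was measured in 6 Y79 libraries, 3 per shRNA. The authors deposited 1 table of estimated counts per gene, of which 12.5 to 12.8% of values per library were not whole. Per the submitters' processing notes the genome build was GRCh38. Aligner, counter, annotation and strand setting: not given in the sources used here. Of 17035 rows, 22 hold no values and were left out.

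Counts were rounded to whole numbers, filtered with filterByExpr (minimum count 10), scaled by TMM and tested with edgeR 4.0.16 (quasi-likelihood F-test, R 4.3.3), with Benjamini-Hochberg adjustment over all 12819 tested genes and a threshold of 0.05. The model was also run on simulated counts in which few genes changed, whereas 75.8% of tested genes were called here. That run therefore does not check the scaling under so broad a change. Alternatives were limma-voom (limma 3.58.1), DESeq2 1.42.0, other scalings and filters, a replicate block, and leaving out each library. Totals were 15490263 to 16078416 counts per library. The submitters call the 3 replicates per group biologically independent and do not say at which step they were separated. Ratios of summed low counts carry exact 95% intervals for counting error only.

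The labels give replicate numbers but no source for them. Same-numbered libraries deviated together (r = 0.369, 0.273 and 0.199 across genes). The main model and the permutation test were nevertheless unpaired. Only the replicate block took the numbers to pair the libraries.

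The genes and lists were chosen with earlier results of these data known. Besides the 10 genes, the text names MYCN, the 2 called genes with the smallest p in each direction per list, set corepressors and cofactors (NAB, ELK, MRTF, RXR, CREB1, CREM, FOS, JUN), and the 3 genes nearest in profile to EGR1, SRF and NR4A1 (log2 of CPM + 0.5, at least 5 CPM). Some genes that this rule picks are not reported here. Marker genes and chromosomal neighbours are named by list and position. Promoter windows came from RefSeq (GRCh38.p14), with none for EGR3, NR4A2 or IER3, and transcripts from GENCODE 29.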

Additional observations from a re-analysis of the deposited data

How the results depend on the processing

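Of 96 recomputed values of single early genes, 87 kept their direction and side of the threshold, 7 kept their direction and changed side, and 2 changed sign without being called. These 2 were NR4A1, at -0.00697 without MYCN shRNA replicate 1 and -0.0277 without control shRNA replicate 3, and its range without 1 library at a time was -0.0277 to 0.0568. The 7 were NR4A3 with DESeq2 (0.90, adjusted p = 0.108) and without any of 4 single libraries with edgeR (0.71 to 0.91 on the log2 scale, adjusted p = 0.0513 to 0.115), NR4A1 with library sizes alone and IER3 without control shRNA replicate 1. A filter of 1 CPM in 3 libraries left NR4A3 out, so it has no value there. The counts of genes called higher (4865) and lower (4857) stayed within 1.5 times under each alternative run, at 4443 to 6597 higher and 3348 to 5059 lower. With the replicate block the log2 fold changes were 4.75 for EGR1, 0.95 for IER2, 0.63 for SRF and 0.89 for NR4A3 (edgeR, adjusted p = 0.0260), and the block changed no call of an early gene. Depth limits EGR2, EGR3 and EGR4, with at most 17 counts per group.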
